A study of Drosophila melanogaster with 21 samples.

Results

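Embryos carrying the allele delRGG were compared with embryos carrying the allele Y332F, 2 alleles of the Drosophila melanogaster gene Top3beta (FBgn0026015), by sequencing of total RNA. The comparison used 6 of the 21 samples of the series, 3 delRGG and 3 Y332F libraries, chosen by the genotype in their labels. The genotype labels read Top3b[delta]RGG for delRGG, which lacks the RGG part of the protein, and Top3bY332F for Y332F, in which a tyrosine is replaced by phenylalanine. All FlyBase genes of the count table were members: 17869 genes, of which 10001 passed the filter on low counts and were tested. The 3 wild-type libraries and the 3 libraries of the allele Top3b26, all from embryos, entered the same model and are given as reference levels. The labels give no age, sex or number of embryos and no genetic background, and do not say whether an allele is 1 line. They do not say whether replicates came from separate collections, so p-values measure only the spread between these samples. The series concerned the RNA targets of the protein and the stress that follows loss of its enzymatic activity, and this comparison sets the removal of an RNA-binding part against a change at the active site.

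Topoisomerase 3 beta is a type IA topoisomerase. Such enzymes open a single strand through a transient bond to an active-site tyrosine, pass another strand through the gap and reseal it, and Top3beta is known to act on RNA as well as DNA. Its RGG box, a stretch rich in arginine and glycine, binds RNA, and the protein works with the Tudor-domain protein Tdrd3 and, through it, with the fragile X protein Fmr1. Its best-known roles are in neurons.

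The targeted gene did not differ between the alleles beyond the spread of the replicates. Top3beta stood at 131, 140 and 103 CPM (the usual depth-scaled unit of a gene's counts, with library totals adjusted by TMM factors) in the Y332F replicates and at 136, 141 and 125 CPM in the delRGG replicates. The ranges overlapped, and delRGG exceeded Y332F by 0.10 on the log2 scale (SE 0.13, edgeR Benjamini-Hochberg adjusted p 0.650). Of the reference genotypes, wild type had a mean of 114 CPM (SD 17.0) and Top3b26 a mean of 22.1 CPM (SD 1.1). A count per gene does not show the amino acid change, and whether the deposited counts cover the deleted stretch is not stated. The level therefore checks neither Y332F nor delRGG. Of the 8 tested topoisomerases and partners of Top3beta, 0 were called, with a median log2 fold change of -0.15 against 0.02 for all genes. Top1, a nuclear type I enzyme, stood at 1407, 1438 and 934 CPM in Y332F and 1048, 1171 and 961 CPM in delRGG. Top2, the type II enzyme, ranged from 984 to 1206 CPM in Y332F and from 1101 to 1189 CPM in delRGG.

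The 6 libraries held between 24671961 and 29264649 counts. The delRGG libraries stood further apart from each other than the Y332F libraries did. On the first principal component of the 12 libraries, which held 75.0% of the variance, delRGG replicates 1 to 3 lay at 86.9, 28.1 and -42.3 and Y332F replicates at -32.6, -60.8 and -17.3. Summed over the 24 tested muscle markers, delRGG replicates 1 to 3 reached 7279, 2858 and 1447 CPM, so that replicate 3 lay below every Y332F replicate (1827, 1531 and 1977 CPM). Summed over the adult female and eggshell list, which holds yolk and eggshell protein genes, Y332F replicate 3 reached 35.4 CPM, while the other 5 libraries held between 0.341 and 0.984 CPM. Among the reference libraries Top3b26 replicate 3 held 14.1 CPM and the rest at most 1.52 CPM.

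In all, 247 of the 10001 tested genes (2.47%) differed at an edgeR Benjamini-Hochberg adjusted p under 0.05, which is what called means below. Of these, 127 (1.27%) were higher and 120 (1.2%) lower in delRGG. With total-count in place of TMM normalization the split became 203 higher and 120 lower. An unadjusted p under 0.05 was found for 2155 genes. The median size of a called change was 0.92 on the log2 scale, and at a minimum of 2-fold 79 genes were higher and 37 lower. For all 247 called genes the 3 delRGG values did not overlap the 3 Y332F values, as was true of 20.2% of all tested genes. The genes called higher were counted less than those called lower, with a median of 14.3 CPM against 53.1 CPM. The wild-type level lay nearer to delRGG than to Y332F on the log2 scale for 185 of the 247 called genes (74.9%), close to the 75.0% of all tested genes. The Top3b26 level lay nearer to delRGG for 101 (40.9%), against 28.0% of all tested genes. The count rested on single libraries. Without delRGG replicate 3 it rose to 1549 genes, 976 higher and 573 lower, and without Y332F replicate 1 or 2 it was 119 or 117. Of the 247, 96 were called in each of the 6 fits that left out 1 of the 6 libraries.

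**Figure D1:**
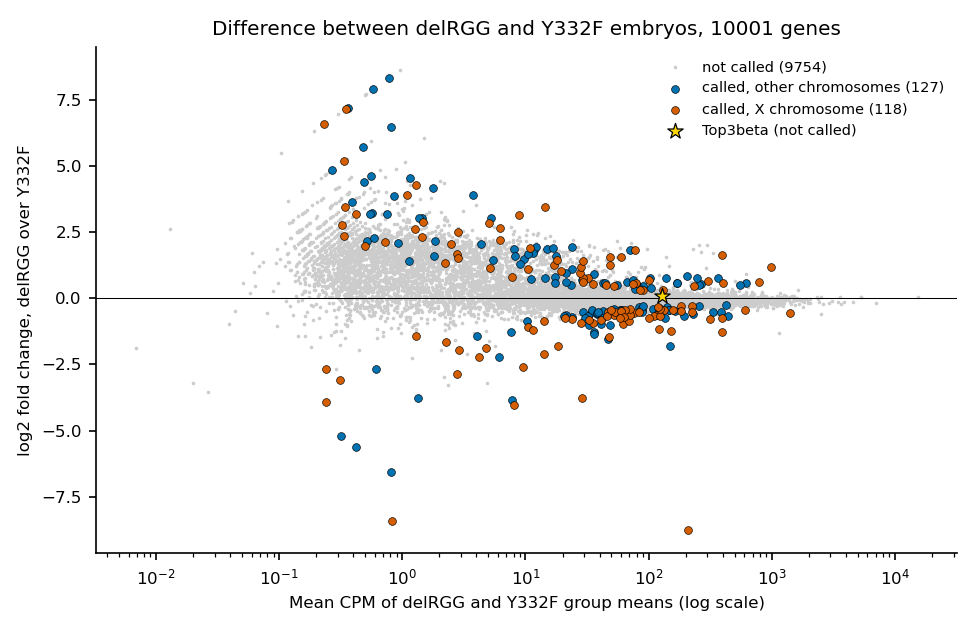
Each point is 1 of the 10001 tested genes, with the mean of the delRGG and Y332F levels in CPM on a log axis and the log2 fold change of delRGG over Y332F on the vertical axis. Called genes are coloured by chromosome (118 on X, 127 elsewhere), Top3beta is the star near 0, and the farthest fall among well-counted genes is lncRNA:CR40469 at -8.77.

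The X chromosome, which carries Top3beta, held a larger share of called genes than the rest of the genome. On X 118 of 1677 tested genes were called (7.04%), 56 higher and 62 lower in delRGG. On the other chromosomes 127 of 8255 were called (1.54%), 71 higher and 56 lower. The median log2 fold change over all tested genes was 0.0022 on X and 0.028 elsewhere. The called changes on X had a median size of 1.07 on the log2 scale, against 0.78 elsewhere. An unadjusted p under 0.05 was found for 28.9% of tested X genes and 20.1% of the others. The calls were spread along the chromosome. Of 10 stretches with nearly equal numbers of tested X genes, each held between 8 and 17 called genes, and the stretch with Top3beta held 10. Among the 21 genes from 10 tested genes before Top3beta to 10 after it, Top3beta included, 0 were called, 7 of 101 within 50 genes (6.93%), and 31 of 401 within 200 genes (7.73%). The share was higher on X than elsewhere in each of the 16 refits with another tool, scaling, filter, set of samples or covariate. Without delRGG replicate 3, for example, it was 20.2% against 14.4%, and without Y332F replicate 2 it was 3.46% against 0.678%. The refits reuse the same libraries and are not separate evidence. The refit of the 6 samples alone with a replicate block called only 2 genes, both on X.

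The same split in the other comparisons of the same model, which share these libraries, is given side by side. For delRGG against wild type 4.47% of X genes and 6.09% of the others were called, and for Y332F against wild type 44.3% and 43.4%. For delRGG against Top3b26 the shares were 25% and 29.1%, and for Y332F against Top3b26 9.66% and 6.82%. The Top3b26 level lay nearer to delRGG for 62 of the 118 called X genes (52.5%) and for 38 of the 127 called genes elsewhere (29.9%). The wild-type level lay nearer to delRGG for 86 (72.9%) and 98 (77.2%). The split by chromosome was made after the data had been seen.

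**Figure D2:**
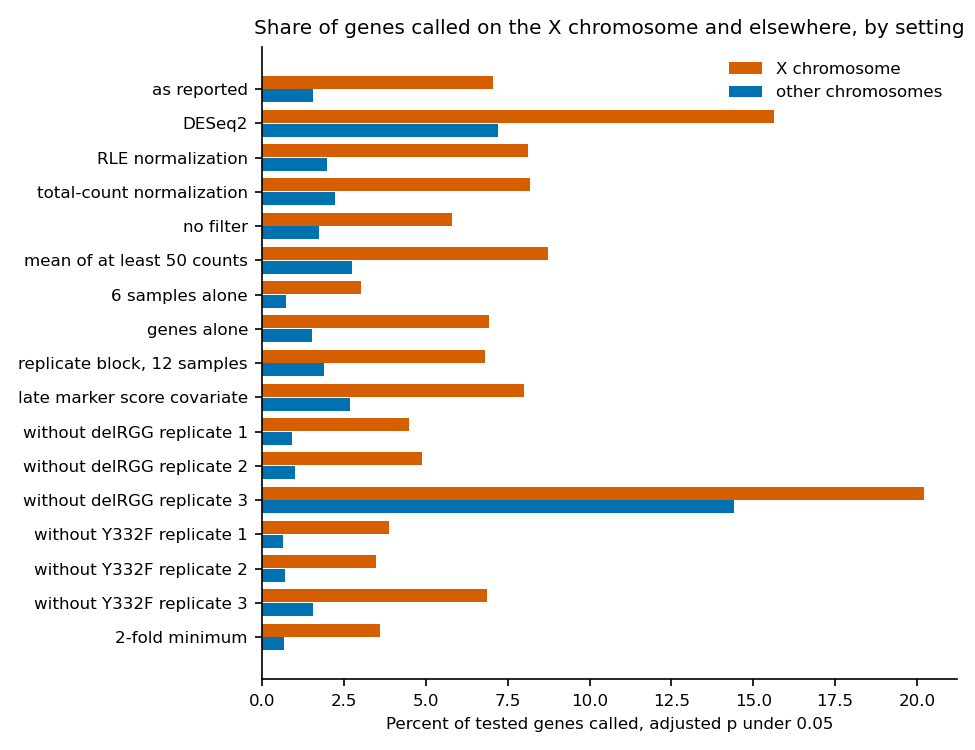
Bars give the percent of tested genes called between delRGG and Y332F on the X chromosome and on the other chromosomes, as reported and under each alternative. The X bar is the longer of each pair, 7.04% against 1.54% as reported. The fit of the 6 samples alone with a replicate block, which called 2 genes, is not drawn.

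The X genes with the smallest adjusted p that overlap no other gene and are not named under another rule were chosen for values that are close within a genotype relative to the difference, so their separation is a description. CG12112 rose in delRGG from 24.8, 24.3 and 25.2 CPM in Y332F to 63.6, 68.0 and 87.1 CPM, or by 1.56 on the log2 scale (SE 0.12, edgeR adjusted p 7.74e-05), with wild type at 71.0 to 77.0 CPM. CG4404 fell from 216, 217 and 215 CPM to 82.4, 82.0 and 107 CPM (-1.25, SE 0.10, edgeR adjusted p 7.74e-05). Every delRGG value of both genes lay well outside the Y332F range. kdn, the citrate synthase that feeds the tricarboxylic acid cycle, stood at 78.4, 79.2 and 72.4 CPM in Y332F and rose to 127, 132 and 114 CPM in delRGG (0.69, SE 0.07, edgeR adjusted p 0.000394). Wild type held 128 to 141 CPM of kdn and Top3b26 95.8 to 103 CPM. pon, partner of numb, which directs the cell-fate determinant Numb to 1 side of a dividing neural precursor, rose from 41.2, 31.6 and 29.2 CPM to 125, 82.8 and 154 CPM (1.83, SE 0.20, edgeR adjusted p 0.000485). It lay between 91.9 and 109 CPM in all 6 wild-type and Top3b26 libraries, so the Y332F libraries were the low ones. Upf2, a factor of nonsense-mediated mRNA decay, rose from 58.4, 63.1 and 61.8 CPM to 89.9, 90.6 and 83.7 CPM (0.53, SE 0.07, edgeR adjusted p 0.00219). Its adjusted p was 0.0514 without Y332F replicate 2.

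Other X genes of this group fell. c12.1 dropped from 76.3, 73.5 and 61.9 CPM to 23.2, 27.1 and 26.5 CPM (-1.46, SE 0.14, edgeR adjusted p 0.000178), with wild type at 20.1 to 28.9 CPM. sordd2 fell from 25.1, 27.5 and 32.9 CPM to 7.67, 8.57 and 7.95 CPM (-1.82, SE 0.16, edgeR adjusted p 0.000140). The wild-type range of sordd2, 6.92 to 9.58 CPM, held the delRGG values, and the Top3b26 range, 39.0 to 47.4 CPM, lay above the Y332F values. Rtel1, a DNA helicase, fell from 133, 132 and 116 CPM to 72.9, 75.1 and 77.4 CPM (-0.76, SE 0.08, edgeR adjusted p 0.000423). For Rtel1 the delRGG libraries were the low ones, since wild type held 98.5 to 116 CPM and Top3b26 88.5 to 97.1 CPM. D2hgdh, named for D-2-hydroxyglutarate dehydrogenase, went from 24.0, 23.5 and 21.3 CPM to 7.94, 3.83 and 4.21 CPM (-2.10, SE 0.25, edgeR adjusted p 0.000998). Pa1 fell from 168, 159 and 177 CPM to 66.3, 68.5 and 92.9 CPM (-1.15, SE 0.13, edgeR adjusted p 0.000540). These 10 X genes were named after their values had been seen.

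Of the 10 genes chosen in the same way off the X chromosome, 8 were higher in delRGG. Drep1, a member of the DNA fragmentation factor family, stood at 6.96, 8.84 and 5.55 CPM in Y332F and rose to 28.2, 23.9 and 27.1 CPM in delRGG (1.89, SE 0.15, edgeR adjusted p 7.74e-05). Both alleles were far below wild type (128 to 154 CPM) and Top3b26 (170 to 195 CPM). CG5455 rose from 7.34, 5.68 and 6.57 CPM to 23.0, 23.6 and 24.1 CPM (1.85, SE 0.13, edgeR adjusted p 2.98e-05), between the ranges of Top3b26 (1.54 to 1.85 CPM) and wild type (52.1 to 57.5 CPM). CG4554 rose from 28.5, 29.9 and 34.3 CPM to 123, 90.1 and 115 CPM (1.82, SE 0.13, edgeR adjusted p 2.98e-05), where wild type held 105 to 119 CPM. Hel89B, a helicase that acts on the TATA-binding protein, rose from 74.9, 78.6 and 73.9 CPM to 144, 133 and 110 CPM (0.77, SE 0.10, edgeR adjusted p 0.00227). wake, an ankyrin-repeat protein that acts in clock neurons and sleep onset, fell from 241, 210 and 250 CPM to 60.1, 68.2 and 71.9 CPM (-1.81, SE 0.19, edgeR adjusted p 0.000421). For wake the Y332F libraries were the high ones, since all wild-type and Top3b26 libraries lay between 57.4 and 97.1 CPM. CG18547 and CG3397, which lie next to each other among the tested genes, both rose, by 1.59 and 2.06 on the log2 scale. CG4297, CG7381 and CG2187 completed the group, at 1.93, 1.94 and -1.33.

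**Figure D3:**
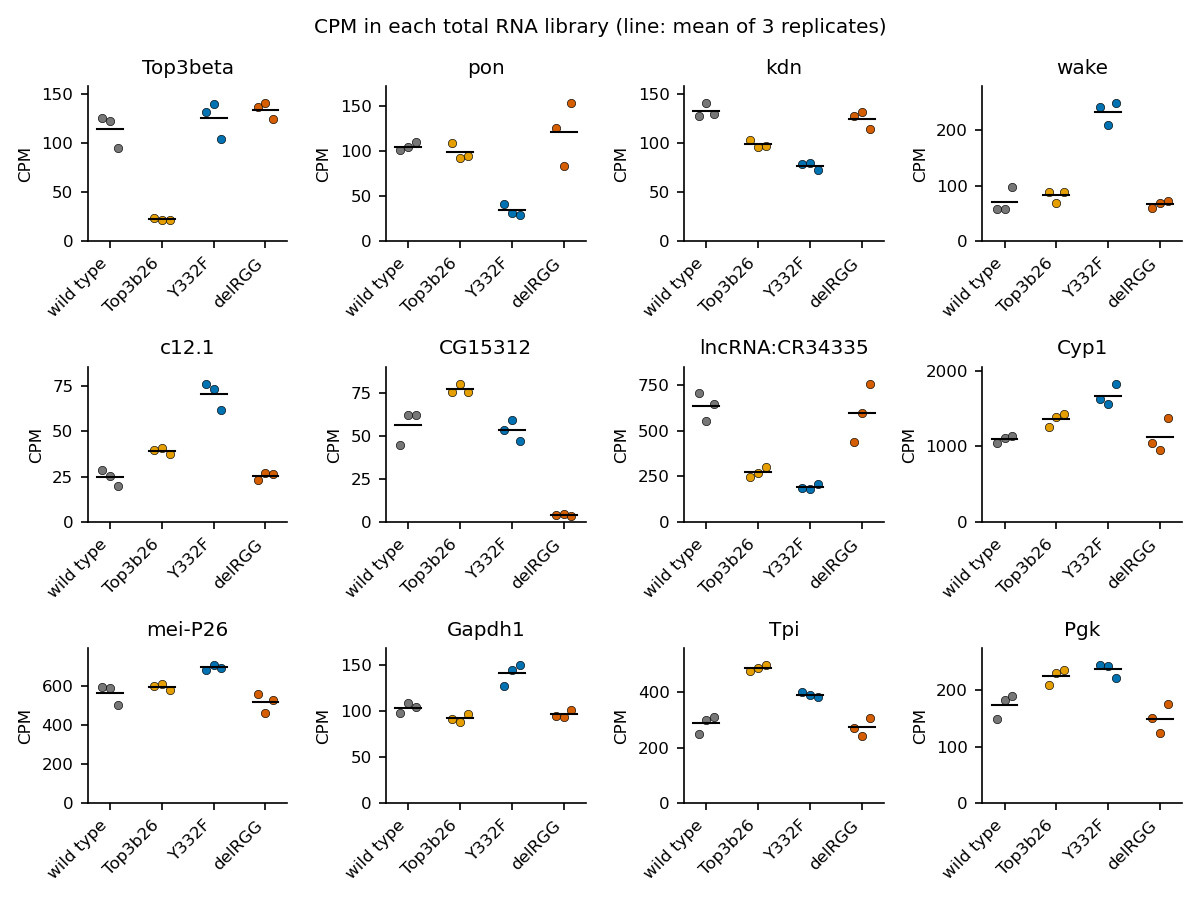
Each panel shows 1 gene, with CPM in each of the 12 total RNA libraries by genotype and the mean of 3 replicates as a line. Top3beta overlaps between Y332F and delRGG, pon is low in Y332F alone, wake is high in Y332F alone and CG15312 is near 0 in delRGG alone.

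Among called genes whose higher group averaged 1 CPM or more, the largest falls in delRGG were mostly those of long noncoding RNAs and genes of unnamed function. lncRNA:CR40469 had 384, 352 and 514 CPM in Y332F and 0.673, 0.727 and 1.496 CPM in delRGG, where wild type had 0.722 to 1.05 CPM and Top3b26 447 to 631 CPM (-8.77, SE 0.29, edgeR adjusted p 4.66e-08). Libraries of the 4 genotypes thus fell into a high pair, Y332F and Top3b26, and a low pair. CR44383, on X and next to sordd2 among the tested genes, had 1.21, 1.66 and 2.08 CPM in Y332F and 0 counts in all delRGG and wild-type libraries. Taking 3 counts over the group as the floor, it was at least 44.5-fold lower in delRGG (edgeR adjusted p 0.00209). lncRNA:CR42861 fell from 14.6, 13.7 and 17.7 CPM to 0.774, 0.765 and 1.30 CPM (-4.01, SE 0.32, edgeR adjusted p 7.74e-05), with the other genotypes at 1.44 to 2.54 CPM. CG15312 went the other way about, with delRGG as the low genotype. It held 53.5, 59.5 and 47.2 CPM in Y332F and 3.83, 4.55 and 3.27 CPM in delRGG (-3.78, SE 0.17, edgeR adjusted p 6.12e-07), and between 45.1 and 80.5 CPM in wild type and Top3b26. CG15312 overlaps Gr9a in the gene table. It and lncRNA:CR40469 were the 2 genes called in each of the 16 refits.

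FBgn0010549, an ABC transporter gene, fell from 15.7, 13.3 and 15.03 CPM to 1.61, 0.612 and 0.787 CPM (-3.86, SE 0.39, edgeR adjusted p 0.000311). Wild type held 6.45 to 9.07 CPM of it and Top3b26 at most 0.0965 CPM, so the 4 genotypes stood at separate levels. CG31445 fell from 3.07, 1.78 and 2.74 CPM to 0.370, 0.0765 and 0.0787 CPM (-3.78, SE 0.64, edgeR adjusted p 0.00921), and both ranges lay below wild type (9.09 to 17.6 CPM). CG43755, which overlaps Plc21C, had 122 counts over the Y332F libraries and 1 over the delRGG libraries, a ratio of 131 (exact 95% interval 23.1 to 5224, counting error only). CG14615 fell from 17.0, 16.2 and 15.9 CPM to 2.66, 1.76 and 3.70 CPM (-2.60, SE 0.25, edgeR adjusted p 0.000212), and delRGG was the low genotype, with the other 6 libraries at 13.3 to 29.6 CPM. The remaining large falls, CG6106, lncRNA:CR44263, CG6023 and CG7985, lay between -2.87 and -2.22. Of these 12 largest falls 7 were genes on X, as were 118 of the 247 called genes. All 12 kept their call in each of the 6 fits that left out 1 library. CR43310 and CG34138, outside the 12 by the CPM limit, fell by 5.62 and 5.20 and kept their call in 1 and 5 of the 6.

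Under the same limit of 1 CPM, the largest rises in delRGG came mostly from rarely counted genes. epsilonTry, a trypsin-like serine protease, had 0 counts in all Y332F libraries and 1.41, 0.842 and 2.44 CPM in delRGG, at least 39.1-fold higher (edgeR adjusted p 0.0314). CG12310 likewise had 0 counts in Y332F and 1.18, 0.842 and 1.46 CPM in delRGG, at least 29.1-fold higher (edgeR adjusted p 0.0367). CG3819 had 1 count over the Y332F libraries and 131 over the delRGG libraries, a ratio of 122 (exact 95% interval 21.5 to 4848, counting error only). Ugt35C1, a UDP-glycosyltransferase, had 3 and 87 counts, a ratio of 27.0 (exact 95% interval 8.93 to 133). Mdr50, an ABC transporter of the multidrug resistance family, rose from 0.0757, 0.0811 and 0.163 CPM to 1.35, 0.880 and 2.60 CPM (3.86, SE 0.86, edgeR adjusted p 0.0406). Mur18B, a mucin-related gene, rose from 0.0757, 0.122 and 0.163 CPM to 2.89, 1.80 and 2.64 CPM (4.30, SE 0.86, edgeR adjusted p 0.0220). The wild-type libraries spread widely for this gene, at 0.380, 1.74 and 4.56 CPM. hwt was counted more and was higher in delRGG than in any other library, at 30.6, 30.5 and 18.7 CPM against 2.69, 2.31 and 2.25 CPM in Y332F (3.46, SE 0.31, edgeR adjusted p 0.000165), and it overlaps the cuticle gene Cpr11B. CG10505, CG12934, CG7298 and CG18585 rose by 4.53, 4.15, 3.91 and 3.24 on the log2 scale. Of the 12 largest rises, CG3819, CG10505, hwt and snoRNA:Psi28S-1135e kept their call in all 6 fits that left out 1 library.

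Larval genes stood beside these rises. All 8 tested members of the larval list, which holds digestive proteases and other genes of the feeding larva, had higher fitted levels in delRGG, with a median log2 fold change of 3.20, and 0 of the 8 were called. Without Y332F replicate 3 the median was 6.56, 1 gene was called higher and 9 were tested, and with each of the other libraries left out it lay between 2.76 and 3.48. Of the 21 genes of the list only 8 passed the filter. A gene can pass it through 1 genotype alone, so the shared direction is partly set by the filter. With no filter and all libraries, 19 were tested, with a median of 2.33 and 4 called higher. Summed over the list, the Y332F replicates held 0.719, 0.446 and 3.23 CPM and the delRGG replicates 17.0, 8.23 and 13.5 CPM, without overlap, while wild type ran from 2.53 to 19.4 CPM and Top3b26 from 0.142 to 0.289 CPM. Jon65Aiii, a Jonah serine protease, had 0.151, 0.203 and 0.531 CPM in Y332F and 3.80, 1.45 and 2.13 CPM in delRGG (3.05, SE 0.73, edgeR adjusted p 0.0571). Jon65Aiv had 0.189, 0.0406 and 0.449 CPM and 4.91, 1.95 and 2.68 CPM (3.79, SE 0.99, edgeR adjusted p 0.0733). delRGG replicate 3 was among the high libraries here, although its muscle sum was the lowest of the 6. The part of hatched larvae in the collections was not tested.

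Among the most counted of the called genes, those higher in delRGG included maternal, translation and cytoskeletal genes. These were picked after the values had been seen, and CPM is not scaled by gene length. wisp, the cytoplasmic poly(A) polymerase of the egg, rose from 596, 698 and 504 CPM in Y332F to 1393, 1423 and 1265 CPM in delRGG (1.18, SE 0.13, edgeR adjusted p 0.000631). Wild type held 1121 to 1469.6 CPM of wisp and Top3b26 575 to 635 CPM. His3.3B, a gene for the histone variant H3.3, rose from 580, 590 and 691 CPM to 889, 948 and 1048 CPM (0.63, SE 0.12, edgeR adjusted p 0.0163). tud, the germ plasm protein Tudor, went from 437, 462 and 477 CPM to 697, 539 and 711 CPM (0.50, SE 0.10, edgeR adjusted p 0.0258), and was the 1 gene called of 20 tested maternal and germ plasm genes, whose median was -0.06. eIF4G1, the scaffold of translation initiation, rose by 0.57 and IleRS, the isoleucyl-tRNA synthetase, by 0.53. Chc, clathrin heavy chain, rose by 0.58, rhea, the integrin linker talin, by 0.75, sn, the actin bundler fascin, by 0.65, and Map205, a microtubule-associated protein, by 0.51. lncRNA:CR34335 rose from 185, 182 and 208 CPM to 440, 601 and 759 CPM (1.65, SE 0.17, edgeR adjusted p 0.000394) and overlaps DIP-alpha. Of these genes wisp, Chc, sn and lncRNA:CR34335 kept their call in each of the 6 fits that left out 1 library, and tud, rhea and Map205 in 2 of them.

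Those lower in delRGG included Cyp1, a cyclophilin, at 1623, 1563 and 1829.6 CPM in Y332F and 1048, 952 and 1377 CPM in delRGG (-0.57, SE 0.13, edgeR adjusted p 0.0478). mei-P26, a TRIM-NHL regulator of germline differentiation, fell from 684, 711 and 695 CPM to 563, 465 and 528 CPM (-0.43, SE 0.09, edgeR adjusted p 0.0258). mld, a zinc-finger factor needed for ecdysone production, fell by 0.66 and Dlic, the light intermediate chain of dynein, by 0.78. dos, an adaptor of receptor tyrosine kinases, fell by 0.31, from 280 to 293 CPM in Y332F to 228 to 231 CPM in delRGG. CG43867 fell from 563, 606 and 514 CPM to 265, 233 and 205 CPM (-1.26, SE 0.12, edgeR adjusted p 0.000200), and overlaps Lztr1 and other genes. CG14200, CG9135 and CG16974 fell by 0.75, 0.51 and 0.25. Of these genes CG43867, CG9135 and Dlic kept their call in each of the 6 leave-out fits, while Cyp1 and CG16974 kept it in 1.

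Part of the glycolytic pathway, which splits glucose to pyruvate, was lower in delRGG. Of 13 tested genes 4 were called, all lower (30.8%, against 1.2% of all tested genes called lower), and 11 of 13 had a fitted level below that in Y332F, with a median log2 fold change of -0.32. Gapdh1, glyceraldehyde-3-phosphate dehydrogenase, fell from 127, 145 and 150 CPM to 94.6, 93.5 and 101 CPM (-0.55, SE 0.07, edgeR adjusted p 0.00239). Pgk, phosphoglycerate kinase, fell from 245, 243 and 222 CPM to 150, 123 and 175 CPM (-0.66, SE 0.12, edgeR adjusted p 0.0162). Tpi, triosephosphate isomerase, fell from 401, 389 and 383 CPM to 270, 240 and 308 CPM (-0.52, SE 0.10, edgeR adjusted p 0.0181). Pfk, phosphofructokinase, the committed step, fell from 157, 158 and 155 CPM to 128, 117 and 124 CPM (-0.35, SE 0.07, edgeR adjusted p 0.0205). Summed over the list, Y332F held 5772, 5887 and 5727 CPM and delRGG 4881, 4363 and 5016 CPM, with no overlap. Wild type ran from 4556 to 5472 CPM and Top3b26 from 5701 to 6146 CPM. With 1 library left out, between 1 and 6 of the 13 were called lower, 1 without Y332F replicate 1, and the call of Gapdh1 was kept in all 6 such fits. With the late marker score as covariate 3 were called lower and the median was -0.30. The count was 7 with DESeq2, 1 with the 6 samples alone and 0 when a replicate block was added to those 6. The medians of these 3 fits were -0.34, -0.34 and -0.35. Ldh, the largest change of the list, went the other way by 1.89 and was not called (edgeR adjusted p 0.145).

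Genes of protein breakdown, respiration and translation gave few calls. Of 35 tested proteasome subunits, 3 were called, all lower (8.57%, against 1.2% of all tested genes), and 32 of 35 lay below Y332F, with a median of -0.16. Rpn7 of the regulatory particle fell from 101, 104 and 93.6 CPM to 66.9, 76.5 and 79.2 CPM (-0.42, SE 0.08, edgeR adjusted p 0.0201). Prosalpha1 and its near copy Prosalpha1R, of the core particle, fell by 0.67 and 0.54. Their reads may be split between the pair by the counting, so each value is uncertain. Depending on the library left out, 0 to 6 of the 35 were called lower. Summed over the list, Y332F held 7663, 7984 and 7124 CPM and delRGG 6278, 6899 and 7195 CPM, so the ranges overlapped. Of 64 tested respiratory chain genes 1 was called, ND-20 of complex I, from 74.9, 76.0 and 82.2 CPM to 44.4, 49.4 and 49.2 CPM (-0.71, SE 0.11, edgeR adjusted p 0.00685), and the median was -0.09. Of 87 cytosolic ribosomal protein genes 1 was called, RpL22, which fell by 0.49 (SE 0.11, edgeR adjusted p 0.0478). The shares called, 1.56% of respiratory chain and 1.15% of ribosomal protein genes, were near that 1.2%, so neither count is a result about its group. ND-20 kept its call in all 6 leave-out fits and RpL22 in 2. As in the proteasome list, most members lay below Y332F, 53 of the 64 respiratory chain and 58 of the 87 ribosomal protein genes. Of 72 mitochondrial ribosomal protein genes and 30 mitochondrially encoded genes 0 were called.

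Single detoxification genes were called in each direction, while most members of their families were not. Of 28 tested glutathione S-transferases, which conjugate glutathione to reactive compounds, 2 were called higher and 1 lower (10.7% in all, against 2.47% of all tested genes). GstD3 rose from 5.53, 4.71 and 5.80 CPM to 15.1, 15.7 and 22.2 CPM (1.73, SE 0.18, edgeR adjusted p 0.000343), and GstD9 by 1.46, where wild type held 27.6 to 30.1 CPM of GstD3. GstT3 fell from 35.7, 40.0 and 35.9 CPM to 18.3, 19.9 and 20.9 CPM (-0.92, SE 0.10, edgeR adjusted p 0.000470). Its wild-type range, 18.1 to 20.8 CPM, held most of the delRGG values, and its Top3b26 range, 38.1 to 39.7 CPM, lay among those of Y332F. Of 23 UDP-glycosyltransferases 3 were called (13%), Ugt37C1 and Ugt35C1 higher and Ugt35A1 lower, from 10.1, 9.01 and 13.2 CPM to 5.28, 3.02 and 4.96 CPM. Of 55 cytochromes P450 only Cyp4p2 was called (1.82%, below the share of all genes), from 0.162 to 0.227 CPM in Y332F to 0.433 to 1.78 CPM in delRGG, where wild type held 62.4 to 72.1 CPM. These families hold close paralogs, whose reads the counting may have divided. GstD3 and GstT3 kept their call in all 6 leave-out fits, GstD9 and Ugt37C1 in 4, Ugt35C1 and Cyp4p2 in 3 and Ugt35A1 in 2.

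**Figure D4:**
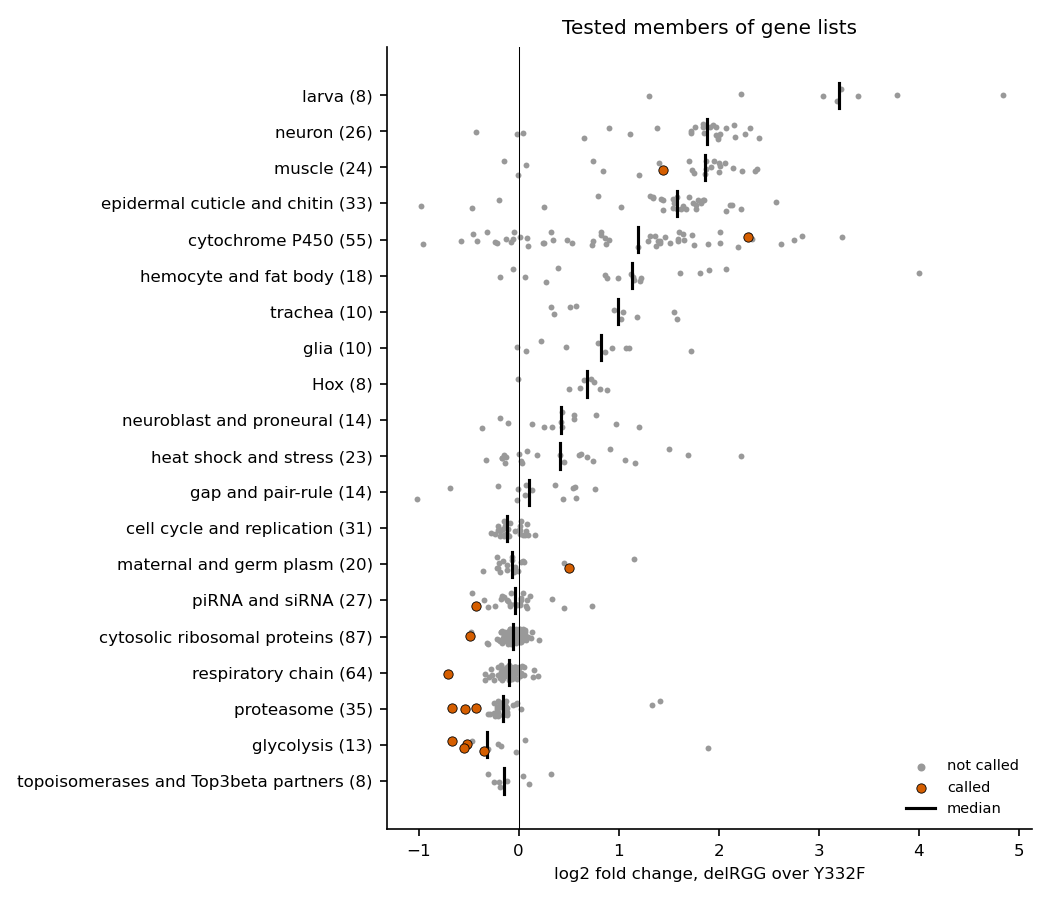
Each point is a tested gene of a list, placed at its log2 fold change of delRGG over Y332F, with called genes in orange and the median as a bar. The number in brackets is how many members were tested. Glycolysis has the most called members, 4 of 13. The medians of the lists of late tissues lie to the right of 0, with 0 or 1 member called.

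Markers of late embryonic tissues had higher fitted levels in delRGG, with next to no calls. Of 26 tested neuron markers 24 lay above Y332F, with a median log2 fold change of 1.89, and 0 were called. Of 24 muscle markers 22 lay above, with a median of 1.87, and 1 was called, kirre, an immunoglobulin-domain protein of muscle founder cells. kirre stood at 9.80, 8.11 and 11.1 CPM in Y332F and at 30.6, 25.3 and 23.1 CPM in delRGG (1.44, SE 0.22, edgeR adjusted p 0.00532), above wild type at 12.2 to 17.2 CPM. It is an X gene with other genes inside its span. Of 33 cuticle and chitin genes 0 were called, with a median of 1.58, and of 18 hemocyte and fat body genes 0, with a median of 1.14. LanA, a laminin chain, shows the spread behind these medians, with 202, 135 and 217 CPM in Y332F and 648, 437 and 124 CPM in delRGG. In bulk RNA a smaller share of cells of a type and less RNA per cell cannot be told apart.

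The neuron sum was 700, 708 and 808 CPM in Y332F and 1187, 819 and 662 CPM in delRGG replicates 1 to 3. Replicates 1 and 2 lay above every Y332F library and replicate 3 below. The cuticle sum behaved in the same way, at 437, 373 and 392 CPM against 885, 527 and 297 CPM. Without delRGG replicate 3, 15 of 26 neuron, 18 of 24 muscle and 14 of 33 cuticle genes were called higher, with medians of 2.28, 2.34 and 2.09. Without delRGG replicate 1 the medians fell to 0.83, 0.64 and 0.41, and kirre was the only gene called higher in the 3 lists. A further fit took as covariate the mean of the tested genes of these same 3 lists in these same libraries. Medians nearer 0 are therefore built into it. They became 0.37 for neuron, 0.08 for muscle and -0.37 for cuticle. That fit called 356 genes, among them 223 of the 247. The developmental age of each collection is not in the labels, and its part in these values was not tested.

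**Figure D5:**
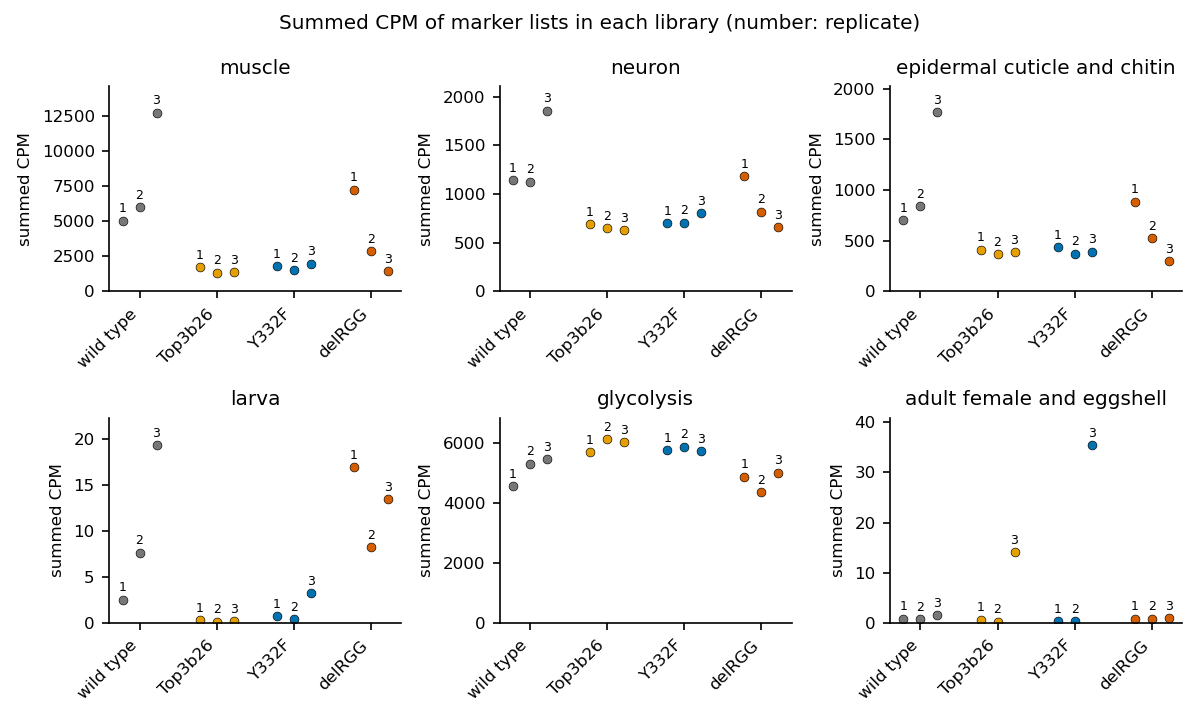
Panels give the summed CPM of 6 marker lists in each of the 12 libraries, with the replicate number at each point. In the muscle, neuron and cuticle panels delRGG replicate 3 lies below the other delRGG replicates. In the larva and glycolysis panels the delRGG and Y332F points are apart. In the adult female panel Y332F replicate 3 stands highest at 35.4 CPM, with Top3b26 replicate 3 next at 14.1 CPM.

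Genes of patterning, proliferation, small RNA pathways and stress gave 1 call among them. The 8 Hox genes, which set segment identity, had a median of 0.69 and 0 calls, with Ubx at 10.7, 7.22 and 14.3 CPM in Y332F and 21.8, 17.3 and 15.2 CPM in delRGG. The 14 gap and pair-rule genes had a median of 0.11, the 14 neuroblast and proneural genes 0.43, and the 31 cell cycle and replication genes -0.11, all with 0 calls. CycB, the mitotic cyclin B, held 3961 to 4156 CPM in Y332F and 3596 to 3904 CPM in delRGG. Of 27 piRNA and siRNA pathway genes 1 was called, the Tudor-domain gene tapas, at -0.43 (SE 0.09, edgeR adjusted p 0.0331), kept in 3 of the 6 leave-out fits. Of 23 heat shock and stress genes 0 were called, with a median of 0.41, 17 above Y332F and 6 below. Hsp83, the Drosophila Hsp90, stood at 5004, 4686 and 4687 CPM in Y332F and 4336, 3891 and 4912 CPM in delRGG, and Hsp26 at 1233 to 1336 CPM and 1008 to 1405 CPM.

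Noncoding genes gave calls in both directions. Of 195 tested genes that RefSeq lists as lncRNA, 14 were called (7.18%), 9 higher and 5 lower, and of 50 pseudogenes 4 (8%), against 223 of 9351 protein-coding genes (2.38%). In the list of 184 tested long noncoding RNAs matched by symbol, 14 were also called, 9 higher and 5 lower. Without delRGG replicate 3 that list gave 23 higher and 9 lower, and without each of the other 5 libraries 3 to 5 of each, with the lowest count, 3 and 3, without Y332F replicate 2. lncRNA:CR43837 rose from 1.51, 1.83 and 2.04 CPM in Y332F to 13.7, 13.1 and 20.9 CPM in delRGG (3.15, SE 0.22, edgeR adjusted p 2.98e-05), with wild type and Top3b26 at 14.2 to 21.0 CPM, so Y332F was the low genotype. Of 154 tested small nucleolar RNAs 3 were called, all higher. That share, 1.95%, was near the 2.47% of all tested genes, so the count is not a result about the group. The 3 were snoRNA:Psi28S-1135e, snoRNA:Psi18S-1854b and snoRNA:Psi18S-1854c, guides of pseudouridylation that all lie inside RpS5a on X. They rose by 3.89, 1.89 and 1.42 and kept their call in 6, 4 and 2 of the 6 leave-out fits, and reads of host and guide may not be separable. Of 122 antisense RNAs 1 was called (0.82%, below the share of all genes), asRNA:CR45485, at 0.811 to 1.06 CPM in Y332F and 3.90 to 4.13 CPM in delRGG. It overlaps other genes, and the strand setting of the counting is not given in the sources used here.

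Called genes lay next to each other more often than genes in general. Of the 245 called genes with a place in the gene table, 24 (9.80%) had another called gene as the nearest tested neighbour on at least 1 side, against 4.81% of all placed genes, and 16 of the 24 had one that moved in the same direction. These made 8 pairs and no longer run. Besides CG18547 with CG3397 and CR44383 with sordd2, the pairs included Cog3 with Sec5 and CG2187 with lncRNA:CR44263. The rest, like CR44383 with sordd2, lay on X. They were CG9503 with pdgy, SNRPG with mthl1, lncRNA:CR43656 with CG34334, and snoRNA:Psi18S-1854b with snoRNA:Psi28S-1135e inside RpS5a. Called genes were also denser on X, and the neighbour count was not corrected for that. The 4.81% is therefore not a matched baseline, and the excess over it cannot be told apart from the density on X.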

How the data were processed

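Total RNA from embryos was extracted with Trizol, made into libraries with a Lexogen CORALL kit and sequenced in pairs on an Illumina NovaSeq instrument, per the labels' protocols. Unnormalized whole-number counts of genes and transposable element copies were deposited by the authors. The submitters' processing notes name bcl2fastq, HISAT2, featureCounts and DESeq2 without versions. Build, annotation, strand setting and any collapsing of duplicate reads are not given in the sources used here, so intervals and floors cover counting error only and no coordinates or sequences are given. Symbols came from a supplied FlyBase table (17790 of 17869 genes), and biotype, order, overlap and chromosome from a RefSeq table (assembly Release 6 plus ISO1 MT), which placed 9932 tested genes.

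The test was that of edgeR 4.0.16 (R 4.3.3): filterByExpr (minimum count 10), TMM, and a quasi-likelihood fit of genotype on all 12 total RNA samples (8 residual degrees of freedom), contrasting delRGG with Y332F. The test covered 10238 features, 10001 of them genes, with Benjamini-Hochberg adjustment over all. SE is the log2 fold change over the square root of F. CPM used TMM-scaled library sizes, 24487603 to 29732084 in the 6 samples. The code was checked on simulated counts. Of the 237 transposable element copies tested, 5 were called, all higher, a share near the 2.47% of all tested genes. The count is therefore not a result about them. Their median log2 fold change was 0.83, against 0.02 for all genes.

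Members and lists were chosen with earlier results of these data known. Genes named were Top3beta, the 12 largest rises and 12 largest falls among called genes whose groups were apart and whose higher group averaged 1 CPM or more, and up to 4 called members of each list, or the 2 most counted where none was called, of which some are left out of the text. Added after seeing the data were the 10 most counted called genes and the 10 with the smallest adjusted p on X and elsewhere. Called genes without a symbol are not named. A replicate is a sample numbered in its title, and equal numbers were not taken as pairs. Their deviations from the group means correlated at 0.21, 0.01 and -0.26, which cannot decide whether equal numbers share a preparation. No library was a copy of another (chi-square per degree of freedom within a genotype at least 11.7). Alternatives were DESeq2 1.42.0, RLE and total-count normalization, 2 other filters, the 6 samples alone, genes alone, a replicate block, a covariate from 83 late tissue markers, a 2-fold minimum and each replicate left out. Plots used matplotlib 3.10.9.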

Additional observations from a re-analysis of the deposited data

How the results depend on the processing

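The count of 247 called genes became 861 with DESeq2, 104 with the 6 samples alone, 116 with a 2-fold minimum and 2 with the 6 samples alone and a replicate block. With the block in the 12-sample fit it was 271. Whether equal numbers share a preparation is not stated, and the correlations between equal numbers cannot decide it, so the fits with and without the block both stand as given. Leaving out 1 replicate gave 117 to 1549 genes. The higher share, 51.4%, was 44.0% with RLE, 62.8% with total counts, 61.8% with the covariate, 63.1% without a filter, 68.1% at 2-fold and 39.3% to 63.0% with 1 replicate left out, lowest without Y332F replicate 2. Top3beta ranged from -0.026 (without Y332F replicate 3) to 0.14 with 1 replicate left out, Top2 from -0.045 to 0.067, and Yp3, a yolk protein gene of the adult female list, from -3.61 to 1.61, positive only without Y332F replicate 3. The cause was not tested. Of 588 other values with a replicate left out, 460 kept direction and side of the threshold, 119 lost the call, 6 gained one and 3, those of Top2 and Yp3, reversed. Under the other alternatives bar the 2-fold minimum, no gene reversed, 135 values lost a call and 9 gained one. Counts of 3 per group limit folds of genes at 0.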
